A study of Mus musculus with 10 samples.

Results

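Synapses are held together and specified by adhesion proteins that reach across the cleft, and 56 genes for such proteins, in 16 families, were followed here in labelled cells of the embryonic mouse brain. The genes were chosen by symbol, as known synaptic adhesion and organizer molecules, with earlier results of these data known. Of the 56, 55 are among the 14300 genes of the counts table. The remaining gene, *Slitrk6*, was not analysed here.

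On the axonal side, neurexins and the LAR-type receptor phosphatases act as hubs that each bind many postsynaptic ligands. Neuroligins, LRRTMs, cerebellins and calsyntenins are ligands linked to neurexins, whereas Slitrks, the netrin-G ligand NGL-3, SALMs and IL-1 receptor accessory proteins bind the phosphatases. Teneurins, FLRTs and latrophilins form a separate set of trans-cellular complexes, contactins pair with contactin-associated proteins, and SynCAMs bind one another. In the embryonic cortex many of these proteins are present before mature synapses form, on growing axons and migrating neurons.

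The 10 libraries came from *Grem1creERT; Rosa26LSLTdtomato* mouse embryos on the C57BL/6J background, in which a tamoxifen-inducible Cre recombinase under *Grem1* control switches on a TdTomato reporter. Tamoxifen was given to the dams at E13.5, and 24 hours later, at E14.5, live cells were sorted into a TdTomato+ and a TdTomato- population, each with 5 libraries, 1 from each of the mice numbered 2 to 6. Both populations therefore carried the same alleles and the same tamoxifen exposure and differed in whether the reporter had been switched on. Because recombination is permanent, descendants of a labelled cell stay labelled even if *Grem1* is later switched off, and the TdTomato- population is a mixture of every other cell sorted. The methods describe the dorsal telencephalon with the meninges removed, with gates set on Cre-negative littermates, whereas the sample descriptions name the brain. Whether a mouse number is a single embryo or a pool was not stated.

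Libraries held 23429034 to 27286180 counted reads, so depth was similar. *Grem1* was at 5.00 to 7.0 CPM (the gene's reads scaled to library size, after TMM correction) in the TdTomato- libraries and at 60.7 to 68.4 CPM in the TdTomato+ libraries, so the *Grem1* levels matched the labels. Markers of several cell types moved with the sort. The 11 radial glia, 8 intermediate progenitor, 8 proliferation and 11 GABAergic lineage genes examined were each lower in TdTomato+ cells, and their summed level fell from between 1838 and 2141 to between 250 and 313 CPM for radial glia and from between 1449 and 1806 to between 54.7 and 82.1 CPM for the GABAergic lineage. All 7 Cajal-Retzius genes were also lower (sums of 219 to 408 against 128 to 161 CPM). The sums of microglial (7 genes, 13.7 to 63.5 CPM), erythroid (5 genes, 74.2 to 258 CPM), endothelial and pericyte (5 genes, 12.6 to 21.0 CPM), oligodendrocyte lineage (3 genes, 40.8 to 60.9 CPM) and meningeal markers (2 genes, 1.88 to 5.29 CPM) were at most 1.72, 25.7, 4.08, 3.35 and 1.09 CPM in TdTomato+ cells. Pan-neuronal genes rose in 13 of 15 cases (sums of 8877 to 10120 against 17680 to 19260 CPM) and deep-layer excitatory genes in 9 of 11 (2129 to 2880 against 7829 to 9129 CPM). In bulk samples, fewer cells of a type and less RNA per cell cannot be told apart, and the part of these markers in the values that follow was not tested.

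Most synaptic adhesion genes were higher in TdTomato+ cells. Of the 55 genes, 42 rose (76.4%), 10 fell (18.2%) and 3 did not pass the test, against 37.9% of all tested genes that rose and 39.4% that fell. The median log2 fold change of the 55 genes was 0.93, whereas that of all tested genes was -0.0063. At a log2 fold change of at least 2 as well, 6 adhesion genes (10.9%) were higher, against 3.2% of all genes, and 1 (1.82%) was lower, against 9.74%. The 6 were *Lrrtm3*, *Lrfn5*, *Tenm1*, *Nlgn1*, *Cntn1* and *Lrrtm4*, which come from 5 families, and the gene that fell this far was *Nrxn3*. The test was the edgeR quasi-likelihood F-test with the mouse as a block and Benjamini-Hochberg adjustment over all 14300 genes, at an adjusted p of 0.05 or less. Adjusted p-values given below are from this test, and the value after ± is the SD for CPM and for shares and the standard error for log2 fold changes. *Lrrtm2* and *Lrrc4c* lay just under the fold threshold, with log2 fold changes of 1.98 ± 0.10 and 1.87 ± 0.061. Without mouse 2 or without mouse 4, *Lrrtm2* passed it as well (2.05 and 2.07).

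**Figure D1:**
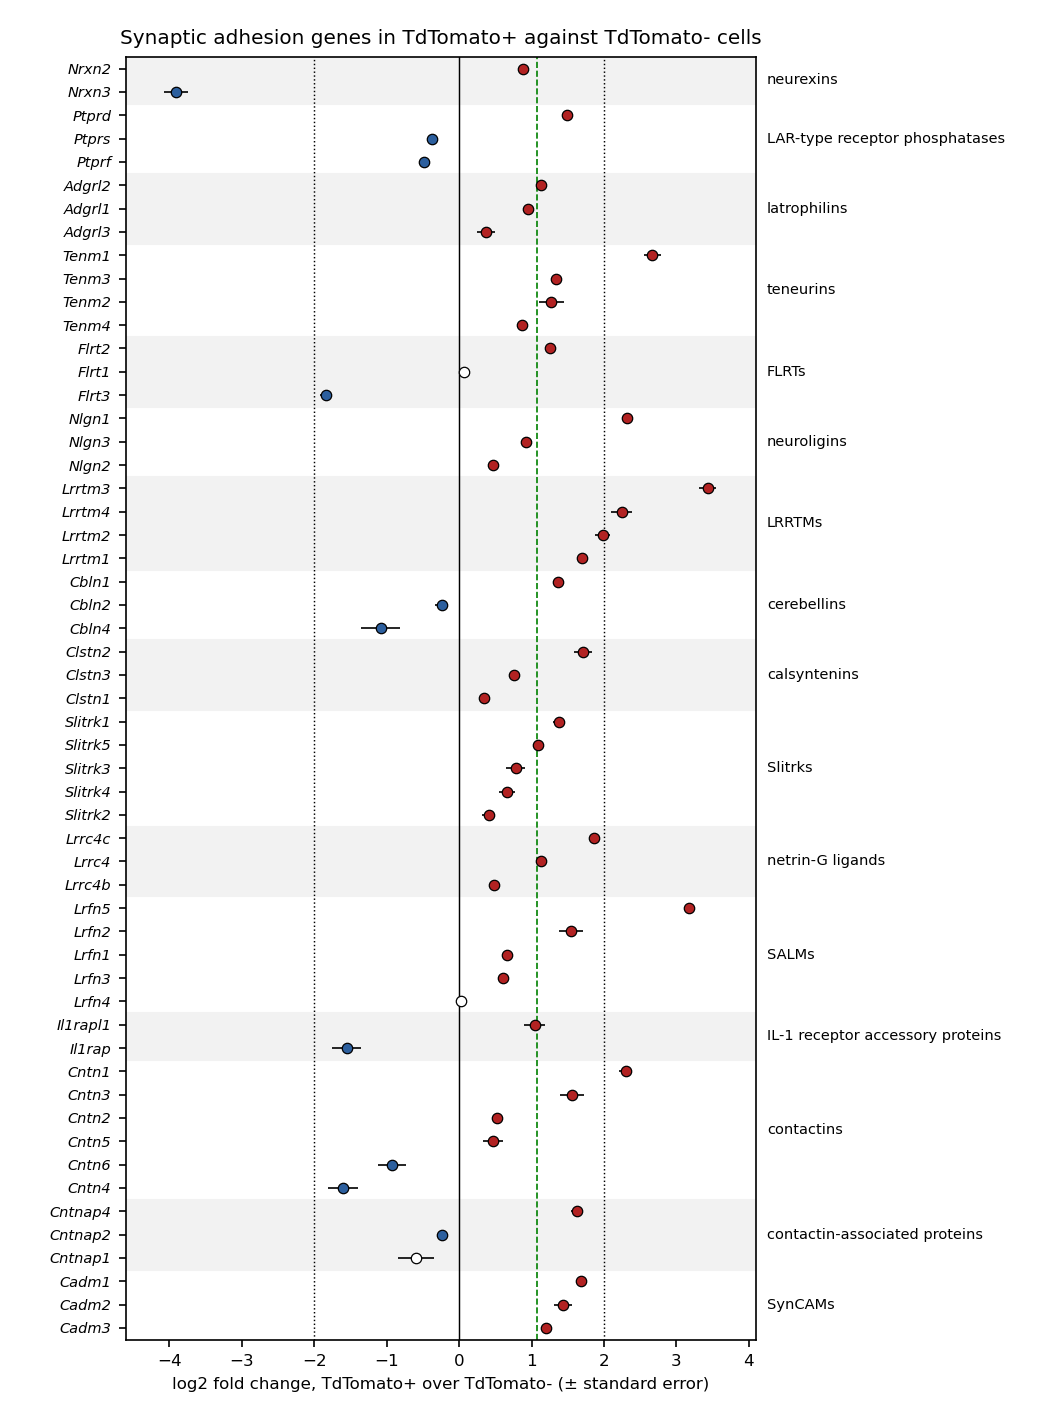
Log2 fold change (x axis) of each of 55 synaptic adhesion genes (y axis, by family), TdTomato+ over TdTomato-, with standard errors from the paired fit of 5 mice. Red points were higher, blue points lower and white points not called at an adjusted p of 0.05 or less; dotted lines mark log2 fold changes of -2 and 2 and the dashed green line the median of 15 pan-neuronal genes (1.08). Points lie right of 0 for 42 called genes, and *Nrxn3* lies farthest left at -3.91.

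The direction was shared within some families and split within others. All measured latrophilins, teneurins, neuroligins, LRRTMs, calsyntenins, Slitrks, netrin-G ligands and SynCAMs were called higher, which makes 8 of 16 families, although the calls of *Adgrl3* and *Slitrk2* depended on the setting, as given below. Neurexins, LAR-type phosphatases, FLRTs, cerebellins, IL-1 receptor accessory proteins, contactins and contactin-associated proteins each held at least 1 gene that rose and 1 that fell. For the contactin-associated proteins the only called fall was that of *Cntnap2*, which also depended on the setting, as given below. The direction was the same in all 5 mice for 50 of the 55 genes (90.9%), against 76.1% of all tested genes. The 5 exceptions were *Adgrl3*, *Flrt1*, *Lrfn4*, *Cntn5* and *Cntnap1*. The values of the 2 populations overlapped for 11 genes and did not for 44 (80.0%), against 61.6% of all tested genes without overlap.

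**Figure D2:**
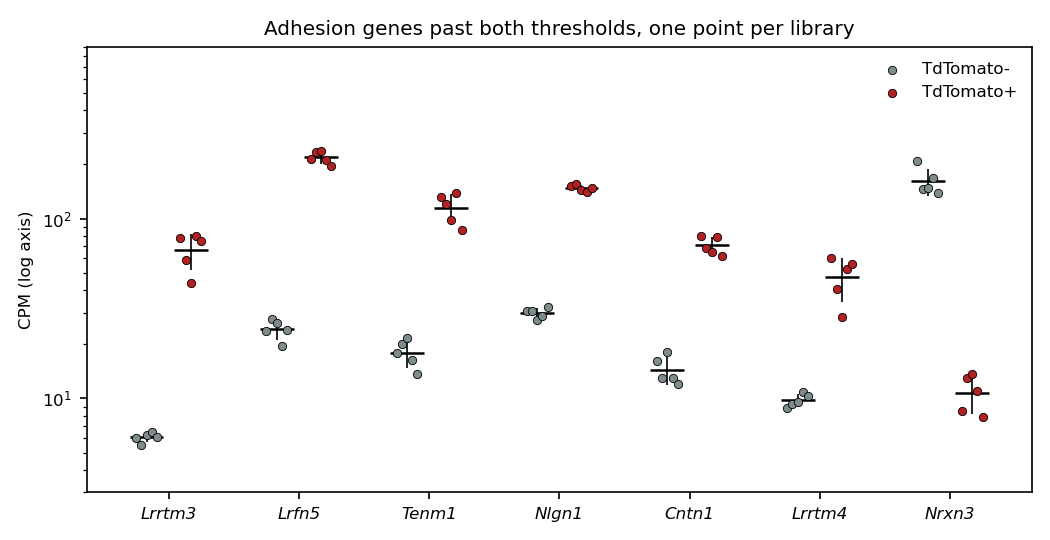
Normalised level (CPM, log axis) of the 7 adhesion genes past both thresholds in each library, with grey points for TdTomato- and red points for TdTomato+ cells, and lines for the mean ± SD of 5 libraries. The populations do not overlap for any of the 7 genes, and *Nrxn3* is the gene with the grey points on top.

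Among the presynaptic hubs, the neurexins moved apart. *Nrxn3*, on chromosome 12 at 88722876 to 90334935 of GRCm38 (plus strand), was at 208, 147, 148, 167 and 139.6 CPM in the TdTomato- libraries of mice 2 to 6 and at 8.48, 12.9, 13.6, 11.0 and 7.86 CPM in their TdTomato+ libraries. Every TdTomato+ library was thus far below every TdTomato- library, and the mean fell 15.0-fold in the fit (log2 fold change -3.91 ± 0.16, edgeR adjusted p = 3.9e-08). *Nrxn2*, which encodes a second hub of the same family, was at 309, 300.3, 346, 317 and 309 CPM in TdTomato- and at 622, 562, 579.6, 600.1 and 544 CPM in TdTomato+ libraries. It rose in 5 of 5 mice with no overlap (log2 fold change 0.88 ± 0.045, edgeR adjusted p = 1.8e-07). The summed level of both neurexins per kilobase of exon changed less, with 35.8 ± 2.34 and 43.0 ± 2.21 CPM per kb in TdTomato- and TdTomato+ cells, while the share of *Nrxn3* in that sum went from 35.8 ± 4.15% to 1.99 ± 0.485%.

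The LAR-type phosphatases also split. *Ptprd*, the member that rose, had 222, 163, 153, 154 and 151 CPM in TdTomato- libraries of mice 2 to 6 and 565, 428, 426, 468 and 461 CPM in TdTomato+ libraries, with no overlap (log2 fold change 1.49 ± 0.050, edgeR adjusted p = 1.2e-08). *Ptprs*, the phosphatase with the highest level per exon length in both populations, was at 2156, 1827, 1735, 1844 and 1974 CPM in TdTomato- and 1521, 1454, 1604, 1331 and 1466 CPM in TdTomato+ libraries. It was lower in each mouse by a small margin (log2 fold change -0.37 ± 0.058, edgeR adjusted p = 0.00032). *Ptprf*, which encodes LAR itself, fell from 473 ± 26.4 to 337 ± 13.2 CPM (log2 fold change -0.49 ± 0.051). *Ptprs* still made up most of the family per exon length, with a share that went from 68.2 ± 2.32% to 63.1 ± 2.22%, and the share of *Ptprd* went from 3.95 ± 0.529% to 13.2 ± 1.37%.

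LRRTMs are leucine-rich repeat transmembrane proteins of excitatory postsynapses, and as a family they showed the widest rise: the sum of the 4 genes per kilobase of exon went from 13.4 ± 1.28 to 59.3 ± 11.6 CPM per kb, 4.43-fold. *Lrrtm3*, on chromosome 10 at 63928472 to 64090277 (minus strand), was at 6.02, 5.53, 6.30, 6.50 and 6.13 CPM in TdTomato- and 77.7, 59.0, 44.1, 79.9 and 74.6 CPM in TdTomato+ libraries. This was the largest rise among the 55 genes, with a log2 fold change of 3.43 ± 0.12 (edgeR adjusted p = 1.6e-08). The lowest TdTomato+ value, that of mouse 4, was still several times the highest TdTomato- value. *Lrrtm4*, on chromosome 6 at 80018877 to 80810143 (plus strand), had 8.80, 9.30, 9.5, 10.9 and 10.3 CPM in TdTomato- and 60.4, 40.7, 28.3, 52.3 and 55.8 CPM in TdTomato+ libraries (log2 fold change 2.25 ± 0.14, edgeR adjusted p = 6.9e-07). Its groups did not overlap, mouse 4 was again the lowest of the TdTomato+ libraries, and when the fold was tested against the threshold of 2 itself (edgeR TREAT) *Lrrtm4* was the 1 gene of the 7 that did not pass. Of its exonic length, 25.1% is shared with an antisense gene, *Gm4409*, and the strand used in counting was not given in the sources used here. *Lrrtm1*, the family's most abundant gene per exon length, was at 21.9, 20.9, 20.0, 25.6 and 29.8 CPM in TdTomato- and 84.4, 61.9, 55.4, 92.8 and 94.5 CPM in TdTomato+ libraries, again without overlap (log2 fold change 1.70 ± 0.074, edgeR adjusted p = 6.1e-08). *Lrrtm2* went from 15.6 ± 2.08 to 61.4 ± 5.08 CPM.

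*Lrrtm1*, *Lrrtm2* and *Lrrtm3* each lie inside an alpha-catenin gene, on its opposite strand, and the host genes were looked up after the LRRTM values had been seen. *Ctnna1*, the host of *Lrrtm2* and a linker of cadherins to actin, fell from 168 ± 8.06 to 23.7 ± 2.73 CPM (log2 fold change -2.83 ± 0.060), the direction opposite to that of *Lrrtm2*. *Ctnna2*, the neural alpha-catenin that hosts *Lrrtm1*, rose from 251 ± 11.5 to 459 ± 14.8 CPM (log2 fold change 0.87 ± 0.042). *Ctnna3*, around *Lrrtm3*, had 0 to 4 reads in TdTomato- libraries and 14 to 28 reads in TdTomato+ libraries, far below the counts of the gene it holds.

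The upstream sequences of the genes with the largest rises, *Lrrtm3* and *Lrfn5*, are shown because they differ in base composition although both genes rose about as far. Each is the stretch from 250 to 51 bases before the RefSeq start (GRCm38.p6), written 5′ to 3′ on the gene's strand with CG dinucleotides in capitals. For *Lrrtm3* it lies at chr10:64090306-64090505 on the minus strand, and for *Lrfn5* at chr12:61522917-61523116 on the plus strand.
Lrrtm3: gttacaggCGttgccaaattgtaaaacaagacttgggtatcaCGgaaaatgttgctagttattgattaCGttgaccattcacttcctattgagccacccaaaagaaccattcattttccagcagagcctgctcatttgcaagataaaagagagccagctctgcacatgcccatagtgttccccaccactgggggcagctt
Lrfn5: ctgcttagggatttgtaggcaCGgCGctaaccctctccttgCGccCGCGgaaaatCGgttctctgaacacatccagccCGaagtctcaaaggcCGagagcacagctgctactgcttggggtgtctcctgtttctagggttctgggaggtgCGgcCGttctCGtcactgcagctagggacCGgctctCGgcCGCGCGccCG
In the 250 bases before the start, *Lrrtm3* had a GC content of 46.0% with 6 CG dinucleotides, and *Lrfn5* had 66.4% with 27. The median over 32851 RefSeq starts was 52.4% with 6 CG dinucleotides, and over the 58 starts of the 43 adhesion genes that matched it was 55.6% with 8.5. Single starts of adhesion genes ranged from 26.4% to 80.0% GC.

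Neuroligins are the classical postsynaptic partners of neurexins, and all 3 measured rose, by unequal amounts. *Nlgn1*, found at excitatory synapses and located on chromosome 3 at 25426215 to 26332460 (minus strand), was at 30.5, 30.5, 27.2, 28.6 and 32.1 CPM in TdTomato- and 152, 155, 144, 141 and 149 CPM in TdTomato+ libraries. These values were tight within each population and far apart between them (log2 fold change 2.32 ± 0.045, edgeR adjusted p = 1.6e-09). *Nlgn2*, a neuroligin of inhibitory synapses and the most abundant of the 3 per exon length, had 419, 364, 371, 378 and 392 CPM in TdTomato- and 571, 511, 543, 499 and 548 CPM in TdTomato+ libraries. Its rise was smaller but also without overlap (log2 fold change 0.47 ± 0.037, edgeR adjusted p = 2.7e-06). *Nlgn3* rose from 38.0 ± 4.45 to 71.9 ± 4.32 CPM (log2 fold change 0.93 ± 0.054), although 41.2% of its exonic length is shared with *Gm21986* on the same strand, so its count is uncertain. Per exon length, *Nlgn1* went from 3.05 ± 0.204% to 9.94 ± 0.502% of the family sum, and *Nlgn2* from 91.3 ± 0.288% to 83.1 ± 0.736%.

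Cerebellins are secreted proteins that bridge neurexins to postsynaptic glutamate receptors of the delta type. *Cbln1* was at 19.7, 20.1, 33.2, 20.5 and 19.4 CPM in TdTomato- and 50.8, 59.6, 68.8, 58.8 and 49.1 CPM in TdTomato+ libraries, with mouse 4 highest in both. It rose in each mouse (log2 fold change 1.37 ± 0.076, edgeR adjusted p = 2.9e-07), against the direction of the other cerebellins. *Cbln4* was scarce, at 2.62, 1.83, 1.80, 1.90 and 1.85 CPM in TdTomato- and 0.907, 0.477, 0.971, 1.83 and 0.723 CPM in TdTomato+ libraries. It was lower in 5 of 5 mice although the populations overlapped (log2 fold change -1.08 ± 0.27, edgeR adjusted p = 0.0052). For *Cbln2*, levels of 17.3 ± 4.6 and 14.9 ± 4.86 CPM overlapped (log2 fold change -0.24 ± 0.088, edgeR adjusted p = 0.032), and the call was lost in DESeq2, without the mouse block and without mouse 2, 4 or 6, the adjusted p ranging from 0.02 to 0.41 over all alternatives. Within the family sum per exon length, *Cbln1* went from 52.6 ± 2.81% to 78.0 ± 3.44% and *Cbln2* from 42.3 ± 3.18% to 20.6 ± 3.56%.

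Calsyntenins are cadherin-like transmembrane proteins linked to neurexins, and all 3 rose. *Clstn1*, the most abundant per exon length, was at 370.3, 369, 394, 417 and 440.2 CPM in TdTomato- and 536, 489, 494, 511 and 492 CPM in TdTomato+ libraries. The difference was small but without overlap (log2 fold change 0.34 ± 0.053, edgeR adjusted p = 0.00028). *Clstn2* rose more, from 45.9 ± 16.1 to 162 ± 84.3 CPM (log2 fold change 1.71 ± 0.13), with a wide spread between mice described further on, and *Clstn3* rose from 69.9 ± 7.12 to 118 ± 11.2 CPM (log2 fold change 0.76 ± 0.047).

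Among the ligands of the LAR-type phosphatases, the SALMs, products of the *Lrfn* genes, held the second-largest rise. *Lrfn5*, whose product binds these phosphatases across the cleft, lies on chromosome 12 at 61523150 to 61858342 (plus strand). It was at 23.8, 27.6, 26.2, 19.6 and 24.0 CPM in TdTomato- and 216, 236, 236, 212 and 197 CPM in TdTomato+ libraries. The populations were 9.06-fold apart in the fit (log2 fold change 3.18 ± 0.062, edgeR adjusted p = 1.6e-09). *Lrfn4*, the most abundant SALM gene per exon length, was at 107, 102, 102, 109.8 and 117 CPM in TdTomato- and 114, 102, 113, 109.7 and 109 CPM in TdTomato+ libraries. These values overlapped fully and the gene was not called, with a log2 fold change of 0.027 ± 0.046 (edgeR adjusted p = 0.6) that turned to -0.0023 without mouse 4. *Lrfn2*, *Lrfn1* and *Lrfn3* rose, with log2 fold changes of 1.54 ± 0.16, 0.67 ± 0.053 and 0.60 ± 0.057. The makeup of the family shifted accordingly, with *Lrfn5* going from 3.94 ± 0.591% to 21.6 ± 0.827% and *Lrfn4* from 49.5 ± 1.59% to 30.7 ± 1.82% of the sum per exon length.

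All 5 measured Slitrks, leucine-rich repeat proteins that bind LAR-type phosphatases and organise both excitatory and inhibitory synapses, rose. *Slitrk1*, the most abundant per exon length, was at 41.7, 51.4, 50.2, 40.1 and 43.7 CPM in TdTomato- and 127, 118, 109, 124 and 114 CPM in TdTomato+ libraries. The populations did not overlap (log2 fold change 1.39 ± 0.082, edgeR adjusted p = 4.3e-07). *Slitrk5*, *Slitrk3* and *Slitrk4* had log2 fold changes of 1.09 ± 0.070, 0.78 ± 0.13 and 0.66 ± 0.11. *Slitrk2* overlapped between populations (log2 fold change 0.41 ± 0.089, edgeR adjusted p = 0.0024), and its call was lost without the mouse block (adjusted p = 0.052, the highest of the alternatives, the lowest being 0.00023).

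Netrin-G ligands rose as well. *Lrrc4b*, which encodes NGL-3 and is among the most abundant adhesion genes per exon length, was at 276, 289.7, 302, 326 and 332 CPM in TdTomato- and 438, 407, 407, 439 and 426 CPM in TdTomato+ libraries. It was higher in every mouse (log2 fold change 0.48 ± 0.048, edgeR adjusted p = 1.7e-05). *Lrrc4c* and *Lrrc4*, whose products bind the netrin-Gs, rose from 17.4 ± 1.35 to 63.4 ± 7.06 CPM and from 30.6 ± 4.67 to 66.5 ± 6.59 CPM, with log2 fold changes of 1.87 ± 0.061 and 1.13 ± 0.052.

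The IL-1 receptor accessory proteins were both scarce and moved in opposite directions. *Il1rap*, also a co-receptor of interleukin-1 in immune cells, was at 4.57, 3.97, 3.85, 4.40 and 4.15 CPM in TdTomato- and 2.00, 1.08, 0.706, 1.70 and 1.85 CPM in TdTomato+ libraries (log2 fold change -1.55 ± 0.20, edgeR adjusted p = 8.6e-05). *Il1rapl1*, a neuronal relative, was at 1.84, 2.70, 2.93, 2.10 and 1.92 CPM in TdTomato- and 3.76, 6.85, 6.67, 4.04 and 2.94 CPM in TdTomato+ libraries (log2 fold change 1.04 ± 0.14, edgeR adjusted p = 0.00012). Neither gene overlapped between populations, but for *Il1rapl1* this was by a very small margin. Its lowest TdTomato+ value was 2.938 CPM and its highest TdTomato- value 2.927 CPM. The leading gene of the pair per exon length was *Il1rap* in TdTomato- and *Il1rapl1* in TdTomato+ cells.

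Teneurins are large transmembrane proteins that bind latrophilins, and all 4 rose. *Tenm1*, on chromosome X at 42527866 to 43429126 (minus strand), was at 18.0, 20.2, 21.8, 16.4 and 13.6 CPM in TdTomato- and 131, 121, 98.1, 138 and 86.3 CPM in TdTomato+ libraries. Every TdTomato+ value was several times the highest TdTomato- value (log2 fold change 2.67 ± 0.11, edgeR adjusted p = 5.4e-08). *Tenm4*, with the highest level per exon length of the 4, was at 460.3, 463, 403, 512 and 506 CPM in TdTomato- and 884, 829, 817, 802 and 922 CPM in TdTomato+ libraries. It rose in 5 of 5 mice (log2 fold change 0.86 ± 0.054, edgeR adjusted p = 6.2e-07). *Tenm3* rose from 159 ± 8.39 to 404 ± 36.2 CPM and *Tenm2* from 130 ± 21.6 to 341 ± 159 CPM, with log2 fold changes of 1.34 ± 0.044 and 1.27 ± 0.17.

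The latrophilins, adhesion G-protein-coupled receptors for teneurins and FLRTs, were led by *Adgrl1*. This gene was at 726, 617, 611, 617 and 638 CPM in TdTomato- and 1368, 1177, 1215, 1201 and 1234 CPM in TdTomato+ libraries. It rose by nearly the same factor in each mouse (log2 fold change 0.95 ± 0.034, edgeR adjusted p = 1.9e-08). *Adgrl2* rose from 255 ± 14.0 to 561 ± 41.7 CPM (log2 fold change 1.13 ± 0.049). *Adgrl3* was higher in 4 of 5 mice and overlapped between populations, at 103, 112, 126, 93.0 and 92.1 CPM against 106, 180.4, 209, 131 and 83.2 CPM. Its log2 fold change was 0.37 ± 0.12 (edgeR adjusted p = 0.023), and the call was lost with robust estimation, without the mouse block and without mouse 3, 4 or 5, the adjusted p ranging from 0.0012 to 0.086 over all alternatives.

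FLRTs bind latrophilins and Unc5 receptors and are known for guiding migrating cortical neurons, and the 3 genes took 3 courses. *Flrt2*, the most abundant per exon length, was at 125, 132, 116, 129 and 112 CPM in TdTomato- and 253, 331, 289, 314 and 278 CPM in TdTomato+ libraries. It rose with no overlap (log2 fold change 1.25 ± 0.054, edgeR adjusted p = 5.3e-08). *Flrt3* went the other way, from 48.2, 52.9, 48.6, 55.2 and 60.3 CPM in TdTomato- to 11.8, 13.1, 12.1, 19.4 and 18.7 CPM in TdTomato+ libraries (log2 fold change -1.84 ± 0.086, edgeR adjusted p = 9.4e-08). *Flrt1* was at 53.6 ± 7.81 and 56.1 ± 5.36 CPM and was not called (log2 fold change 0.073 ± 0.052, edgeR adjusted p = 0.23). Per exon length *Flrt3* went from 30.3 ± 1.76% to 6.08 ± 1.27% of the family sum and *Flrt2* from 44.4 ± 3.44% to 74.9 ± 2.99%.

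Contactins are immunoglobulin proteins anchored to the membrane by a lipid, and 4 of 6 rose. *Cntn1*, on chromosome 15 at 92051165 to 92341967 (plus strand), was at 16.2, 13, 18.1, 13 and 12.1 CPM in TdTomato- and 79.7, 68.7, 65.4, 78.6 and 61.9 CPM in TdTomato+ libraries. The populations were far apart (log2 fold change 2.30 ± 0.096, edgeR adjusted p = 4.5e-08). *Cntn2*, also called TAG-1 and known from growing axons of cortical projection neurons, had 737, 1185, 1089, 991 and 1343 CPM in TdTomato- and 1341, 1541, 1623, 1372 and 1711 CPM in TdTomato+ libraries. It was higher in every mouse although the values of the populations met, the TdTomato- value of mouse 6 lying just above the TdTomato+ value of mouse 2 (log2 fold change 0.53 ± 0.071, edgeR adjusted p = 0.00012). *Cntn3* rose from 2.33 ± 0.395 to 6.94 ± 1.47 CPM (log2 fold change 1.56 ± 0.17). *Cntn5* was higher in 4 of 5 mice (log2 fold change 0.47 ± 0.14, edgeR adjusted p = 0.012), and the call was lost without the mouse block (adjusted p = 0.0503, the highest of the alternatives, the lowest being 0.00404).

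The contactins that fell were both near the lower end of the table. *Cntn4* was at 1.88, 1.94, 2.17, 2.38 and 1.05 CPM in TdTomato- and 0.408, 0.607, 0.971, 0.696 and 0.407 CPM in TdTomato+ libraries (log2 fold change -1.61 ± 0.21, edgeR adjusted p = 9e-05), which did not overlap. *Cntn6* was at 1.76, 1.76, 2.49, 2.14 and 1.32 CPM in TdTomato- and 0.861, 1.08, 1.15, 1.52 and 0.452 CPM in TdTomato+ libraries (log2 fold change -0.93 ± 0.20, edgeR adjusted p = 0.002), lower in each mouse but with overlap.

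The 3 listed contactin-associated proteins exchanged their leading gene per exon length, while in CPM, without regard to length, *Cntnap2* led in both populations, in TdTomato+ cells by less than its SD. *Cntnap4*, known from inhibitory and dopaminergic terminals, was at 25.8, 19.5, 20.5, 22.7 and 21.0 CPM in TdTomato- and 69.1, 75.8, 71.6, 65.4 and 57.6 CPM in TdTomato+ libraries (log2 fold change 1.63 ± 0.084, edgeR adjusted p = 1.8e-07). *Cntnap2*, known for clustering potassium channels beside the node of Ranvier, was at 70.8, 111, 119, 70.4 and 74.1 CPM in TdTomato- and 60.3, 104, 109, 65.2 and 48.6 CPM in TdTomato+ libraries. It was slightly lower in every mouse while the populations overlapped (log2 fold change -0.23 ± 0.075, edgeR adjusted p = 0.02), and the call was lost without the mouse block (adjusted p = 0.46, the highest of the alternatives, the lowest being 0.011). *Cntnap1*, scarce at 1.55 ± 0.453 and 1.02 ± 0.303 CPM, was not called (log2 fold change -0.59 ± 0.25, edgeR adjusted p = 0.051), but passed the threshold with upper-quartile scaling, without the mouse block and without mouse 3, the adjusted p ranging from 0.016 to 0.18 over all alternatives. The share of *Cntnap4* in the sum of these 3 genes per exon length went from 28.9 ± 6.69% to 59.3 ± 6.43%. The sum leaves out *Cntnap3* and *Cntnap5a*, placed among the binding partners, of which *Cntnap3* fell from 1.33 to 0.0940 CPM per kb (log2 fold change -3.81 ± 0.15) and *Cntnap5a* rose from 0.355 to 0.684 CPM per kb (log2 fold change 0.93 ± 0.14).

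SynCAMs, immunoglobulin proteins that bind across the cleft to one another, rose together. *Cadm3*, the most abundant of the 3 listed genes per exon length, was at 188, 162, 186, 185 and 185 CPM in TdTomato- and 454, 404, 403, 425 and 394 CPM in TdTomato+ libraries. The populations were well separated (log2 fold change 1.2 ± 0.044, edgeR adjusted p = 2.2e-08). *Cadm1* and *Cadm2* rose from 178 ± 20.0 to 570.3 ± 68.2 CPM and from 26.2 ± 2.00 to 72.4 ± 17.7 CPM, with log2 fold changes of 1.68 ± 0.061 and 1.44 ± 0.13. The family sums hold these 3 genes; *Cadm4*, a further SynCAM that was placed among the binding partners, was higher than each of them per exon length, at 112 CPM per kb in TdTomato- and 159 CPM per kb in TdTomato+ cells (log2 fold change 0.51 ± 0.041).

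Levels were compared between genes per kilobase of exon, the total exonic length in the annotation. In TdTomato+ cells the order was led by *Cntn2* (163 CPM per kb), *Lrrc4b* (145), *Adgrl1* (144), *Clstn1* (108), *Ptprs* (98.4) and *Nlgn2* (92.4). *Lrrc4b* and *Adgrl1*, and likewise *Ptprs* and *Nlgn2*, differed by less than the SD of at least 1 of the pair. In TdTomato- cells the same 6 genes led in another order, *Ptprs* (127 CPM per kb), *Cntn2* (115), *Lrrc4b* (104), *Clstn1* (85.4), *Adgrl1* (74.8) and *Nlgn2* (66.5), the first 3 within the SD of *Cntn2*. The genes with the largest log2 fold changes were not those with the highest levels: *Lrrtm3* was at 15.8, *Lrfn5* at 23 and *Tenm1* at 6.47 CPM per kb in TdTomato+ cells.

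**Figure D3:**
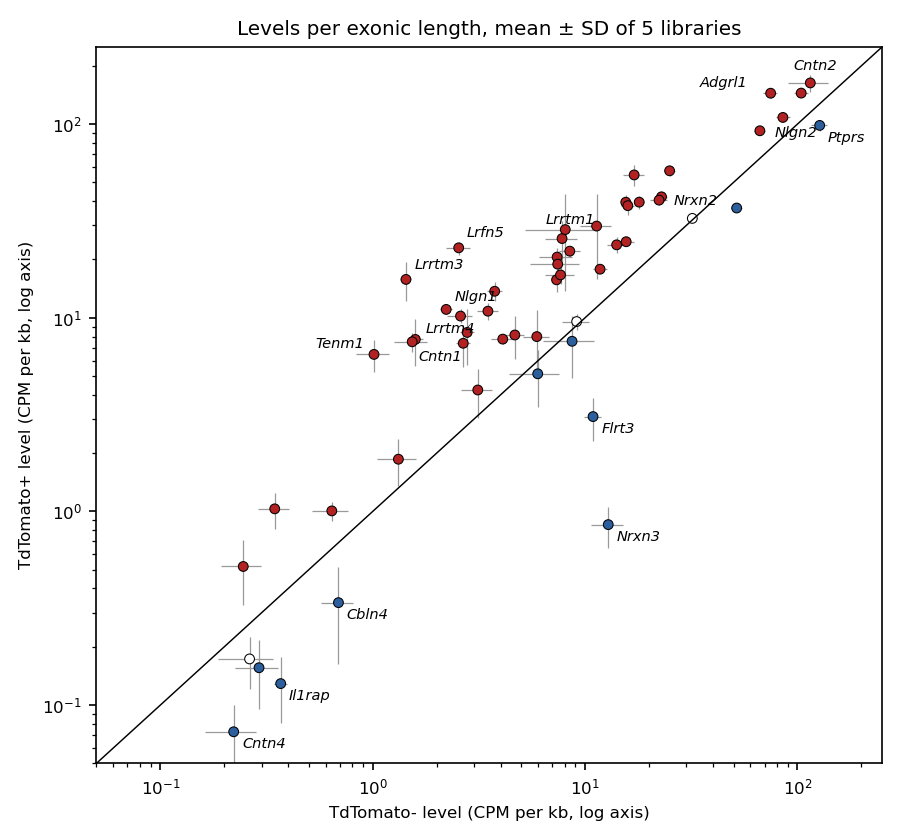
Level of each of 55 adhesion genes in TdTomato- (x axis) and TdTomato+ cells (y axis), in CPM per kilobase of exon on log axes, as mean ± SD of 5 libraries, with the line of equal level. Red genes were called higher, blue lower and white not called; *Cntn2* is at the top right and *Nrxn3* farthest below the line.

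Among the listed genes, the leading gene per exon length was the same in both populations in 14 of 16 families. In 2 of these the lead in TdTomato+ cells was within the SD, with *Tenm4* at 40.5 ± 2.4 against *Tenm3* at 39.5 ± 3.54 CPM per kb, and, with *Cadm4* outside the list, *Cadm3* at 57.4 ± 3.33 against *Cadm1* at 54.6 ± 6.53 CPM per kb. In TdTomato- cells the lead of *Cbln1* (7.43 CPM per kb) over *Cbln2* (5.98 CPM per kb) was also within the SD. The leading gene changed from *Il1rap* to *Il1rapl1* and from *Cntnap2* to *Cntnap4*. Without the length correction it changed in 3 families, the SALMs, the IL-1 receptor accessory proteins and the SynCAMs. For the SynCAMs the lead in TdTomato- cells was then within the SD, with *Cadm3* at 181.2 ± 10.58 against *Cadm1* at 177.7 ± 20 CPM. The shares are a description of the listed genes and were not tested.

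**Figure D4:**
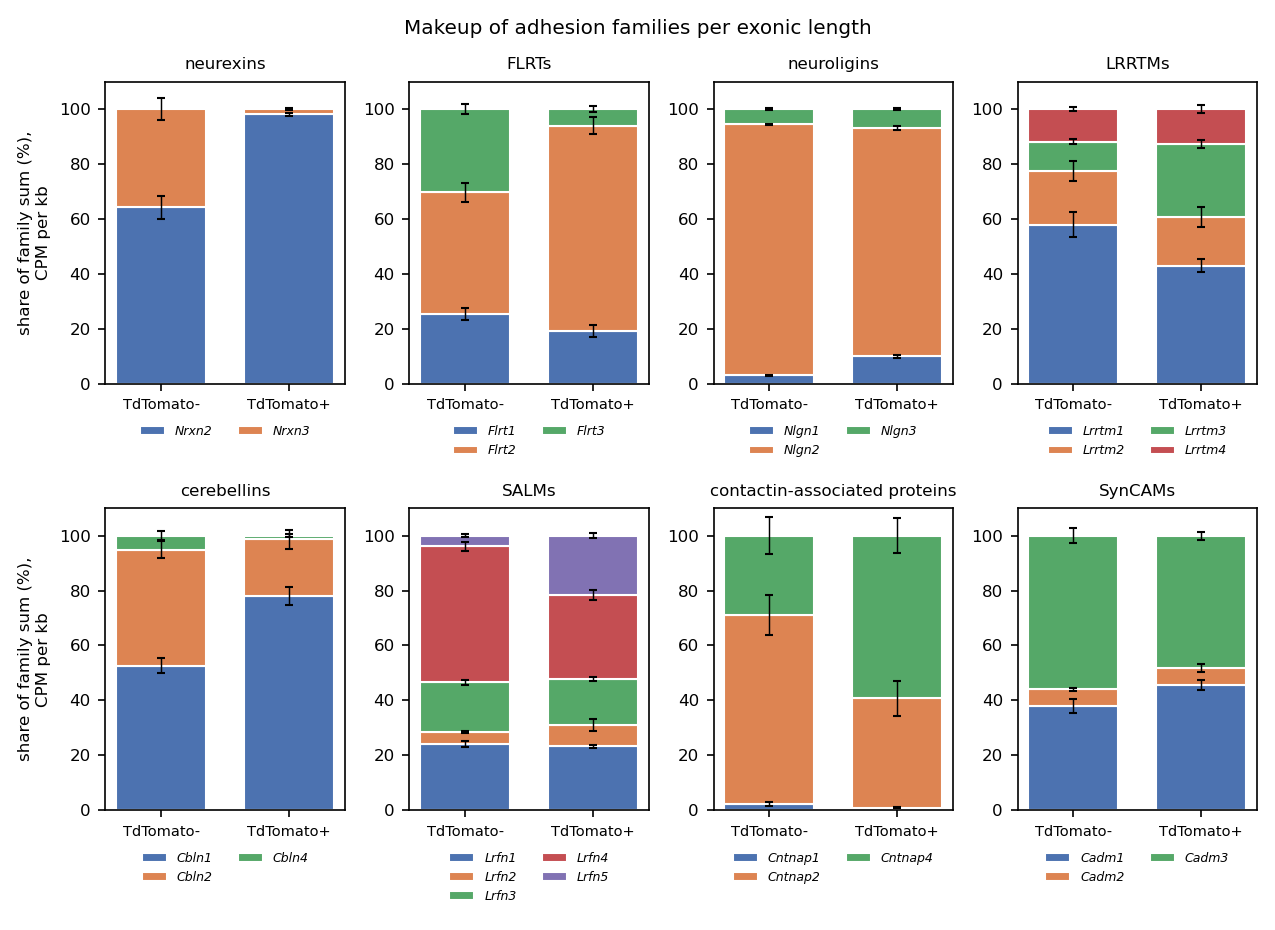
Share (%) of each gene in the sum of the listed genes of its family, in CPM per kilobase of exon, for 8 of the 16 families, as the mean of 5 libraries with the SD of each share at the top of its segment. *Nrxn3* shrinks from 35.8 ± 4.15% to 1.99 ± 0.485% of the neurexins and *Lrfn5* grows from 3.94 ± 0.591% to 21.6 ± 0.827% of the SALMs.

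Some adhesion genes varied widely between mice. In TdTomato+ libraries *Tenm2* was at 533, 186, 168, 409 and 410.2 CPM in mice 2 to 6, a coefficient of variation of 46.5%, against 153, 99.8, 119, 147 and 131 CPM in TdTomato- libraries. *Clstn2* was at 233, 79.1, 66.9, 188 and 245 CPM in TdTomato+ and 52.0, 28.1, 30.4, 53.6 and 65.4 CPM in TdTomato- libraries, with a coefficient of variation of 52.0% in TdTomato+ cells. For both genes, mice 3 and 4 had the lowest TdTomato+ values, and both genes rose in every mouse, with log2 differences per mouse of 0.50 to 1.80 for *Tenm2* and 1.14 to 2.16 for *Clstn2*. *Lrfn2* had the reverse order, at 21.1, 37.3, 33.2, 26.3 and 16.5 CPM in TdTomato+ libraries with mice 3 and 4 highest, as did *Adgrl3* and, in both populations, *Cntnap2*. These 5 genes and *Slitrk2* were chosen for display after their values had been seen. Mice 3 and 4 also had the lowest TdTomato+ values for *Lrrtm1*, *Lrrtm3* and *Lrrtm4*, given above, but not for *Lrrtm2*. No label names a litter, sex or batch for the mouse numbers, so what sets mice 3 and 4 apart was not tested.

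**Figure D5:**
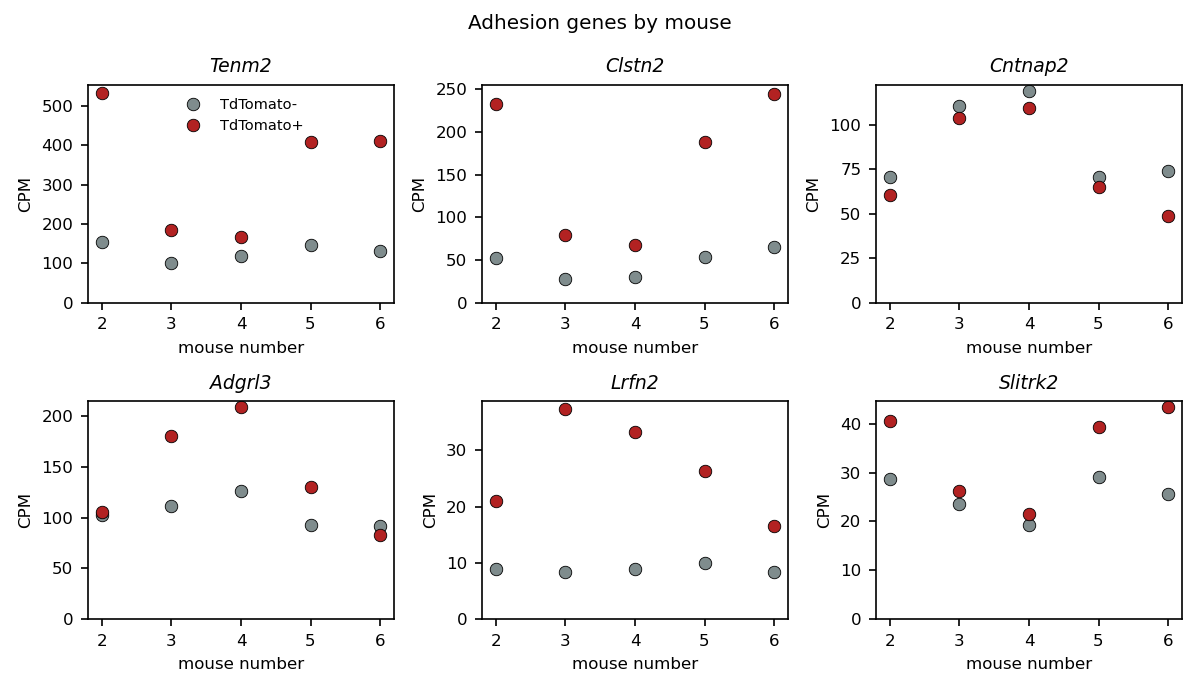
CPM (y axis, starting at 0) in each of the mice 2 to 6 (x axis) for 6 adhesion genes, with grey points for TdTomato- and red points for TdTomato+ libraries. Mice 3 and 4 have the lowest TdTomato+ values for *Tenm2*, *Clstn2* and *Slitrk2* and the highest for *Cntnap2*, *Adgrl3* and *Lrfn2*.

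Because TdTomato+ cells held more pan-neuronal RNA, the adhesion genes were read beside those genes. The 15 pan-neuronal genes had a median log2 fold change of 1.08, a minimum of -0.43 and a maximum of 1.84. Of the 55 adhesion genes, 25 lay above that median, 8 above the maximum and 8 below the minimum. The 8 above it were *Lrrtm3*, *Lrfn5*, *Tenm1*, *Nlgn1*, *Cntn1*, *Lrrtm4*, *Lrrtm2* and *Lrrc4c*. This is a description, and no difference between the lists was tested.

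Many adhesion genes are very long, and 16 of the 55 span more than 500 kb of genome. Their median log2 fold change was 1.31, against 0.78 for the other 39 genes. Over all tested genes, the 206 that span more than 500 kb had a median of 0.51, against -0.0063 for the whole table. The Spearman correlation of span with log2 fold change was 0.23 over the 55 genes and 0.05 over 14271 genes, as a description across genes, which share libraries and are not independent. Among the long genes were both *Nlgn1*, which rose, and *Nrxn3*, which fell furthest.

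Other proteins of the same complexes were examined as a list of 37 binding partners, 35 of them in the table. Of these, 21 rose (60.0%, against 37.9% of all tested genes), 11 fell (31.4%, against 39.4%) and 3 did not pass the test, with a median log2 fold change of 0.75. Both thresholds were passed upwards by 5 (14.3%, against 3.2%) and downwards by 6 (17.1%, against 9.74%). The neurexophilins, secreted ligands of neurexins, moved apart. *Nxph3* rose from 8.18 ± 1.19 to 177 ± 31.2 CPM (log2 fold change 4.42 ± 0.15), *Nxph4* rose less (log2 fold change 0.70 ± 0.092), and *Nxph1* fell from 24.9 ± 2.85 to 1.94 ± 0.768 CPM (log2 fold change -3.71 ± 0.16). *Mdga2*, which binds neuroligins and blocks their contact with neurexins, rose by a log2 fold change of 2.83 ± 0.13. *Elfn2*, a ligand of metabotropic glutamate receptors, *Lgi1*, a secreted ligand of ADAM22, and *Nptxr*, a pentraxin receptor that gathers AMPA receptors, also passed both thresholds upwards, with 2.61 ± 0.070, 2.50 ± 0.15 and 2.29 ± 0.12. Downwards, *Cntnap3* (-3.81 ± 0.15), *Gpc3*, a glypican (-3.18 ± 0.20), *Nptx2*, a neuronal pentraxin (-2.86 ± 0.35), *Unc5d*, a receptor of netrins and FLRTs (-2.64 ± 0.13), and *C1ql1*, a secreted complement-like protein (-2.55 ± 0.34), passed both, besides *Nxph1*.

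Of 28 intracellular partners, scaffolds that hold adhesion proteins in place, 21 rose (75.0%, against 37.9% of all tested genes), 5 fell (17.9%, against 39.4%) and 2 did not pass the test, and the median log2 fold change was 0.63. *Ppfia4*, a liprin-alpha that binds LAR-type phosphatases, was the 1 gene of this list past both thresholds (3.57% upwards, against 3.2% of all tested genes, and 0 downwards, against 9.74%), rising from 8.44 ± 1.67 to 68.9 ± 8.28 CPM (log2 fold change 3.04 ± 0.073, edgeR adjusted p = 2.8e-09).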

How the data were processed

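Polyadenylated RNA of sorted TdTomato+ and TdTomato- cells of 5 mice was sequenced. The authors trimmed bases with a Phred score under 28, aligned reads to GRCm38 with STAR 2.4.2a (at most 1 mismatch) and deposited raw counts of uniquely mapped reads per gene. The kit and read length differ between the methods and the labels, and the annotation release and strand column are not given in the sources used here.

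The quasi-likelihood F-test of edgeR 4.0.16 (R 4.3.3) was fitted to the counts of all 10 libraries after filterByExpr and TMM scaling, with the mouse as a block and a prior count of 0.125. P-values were adjusted by Benjamini-Hochberg over all 14300 genes, a call needed an adjusted p of 0.05 or less, and the fold threshold was a log2 change of 2 in either direction. Pairing comes from the shared mouse numbers and the study's paired comparisons, and deviations of same-numbered libraries from their group means correlated at 0.186 to 0.316. Libraries of a population differed by at least 4.46 times the sampling noise (chi-square per degree of freedom), so none was a duplicate. Log2 CPM used a prior count of 2. Symbols and exonic lengths came from GENCODE (14271 genes matched). The procedure was tested on simulated data. Alternatives were RLE and upper-quartile scaling, DESeq2 1.42.0, other count filters (none, or more than 1 CPM in 5 libraries), no block, a prior count of 2, robust estimation, TREAT in edgeR, no length correction, and each mouse left out in turn.

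The adhesion genes, the partner lists and the marker lists were chosen with earlier results of these data known. Every measured adhesion gene is named with its fold change. Values per library are given for genes past both thresholds, for the leading gene of each family, and for genes against most of their family, with a few more chosen after their values were seen.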

Additional observations from a re-analysis of the deposited data

Results flagged for a closer look

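Within each population of 5 libraries, the log2 CPM of every adhesion gene was examined for a library that stood far from the other 4, measured as the gap to its nearest neighbour divided by the whole range, with a critical value of 0.71. This held for 9 of 110 groups, where 5.5 would be expected by chance. Mouse 2 stood apart among TdTomato- libraries for *Ptprd* (222 CPM, the highest, 0.809), *Adgrl1* (726 CPM, the highest, 0.749), *Cbln4* (2.62 CPM, the highest, 0.860), *Cntnap1* (2.35 CPM, the highest, 0.792) and *Ptprf* (427 CPM, the lowest, 0.783). Mouse 4 stood apart among TdTomato- libraries for *Cbln1* (33.2 CPM, the highest, 0.896) and *Clstn3* (82.6 CPM, the highest, 0.863), and mouse 3 for *Cadm3* (162 CPM, the lowest, 0.872). In TdTomato+ cells, mouse 6 was the lowest for *Cntn5* (4.47 CPM, 0.824). What set these libraries apart was not tested.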

How the results depend on the processing

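Counts of adhesion genes called stayed within 1.5 times their value under every alternative run. Without the mouse block, that is without pairing, 39 genes were higher and 9 lower, against 42 and 10 with it, and *Adgrl3*, *Cbln2*, *Slitrk2*, *Cntn5* and *Cntnap2* lost their call while *Cntnap1* gained one. The same 7 genes passed both thresholds under 11 of 14 alternatives; *Lrrtm2* joined them without mouse 2 or mouse 4, and *Lrrtm4* was lost under TREAT. Of 715 single-gene values under alternatives, 698 kept their direction and their side of the threshold, 13 were no longer past it, 3 newly passed it, and 1 reversed, that of *Lrfn4* without mouse 4 (-0.0023 to 0.0679 over the mice left out, never called). Among these values, 110 come from 2 alternatives that left every adjusted p as it was, the one with no count filter, because the filter had removed no gene, and the prior count of 2, so they say nothing about stability; of the other 605, 588 kept direction and side. Scaling alternatives moved the median of all genes by -0.0189 to 0.005 on the log2 scale. Causes were not tested. The scarcest genes, *Cbln4*, *Cntn4*, *Cntn6*, *Cntnap1* and *Il1rap*, were under 5 CPM in every library, and what depth does to their values was not tested.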
